A study of Mus musculus with 8 samples.

Results

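Rnf214, 1700020L24Rik, Gm51913, Gm39008, LOC667541 and Gm52209 were examined as genes whose counts were higher both after 12-HETE treatment and after ADAR1 p150 overexpression than in the matching controls. These 6 genes were picked from 49997 genes in the count table because of those values, so their levels in the treated libraries are given here as a description without a test. The libraries came from EO771, a mouse breast cancer cell line, in 2 experiments with 2 libraries per group. In the first, cells received either 12-HETE at 100 nM for 48 h, a lipid that 12-lipoxygenase makes from arachidonic acid, or the vehicle alone, which was saline with 2% DMSO (replicates 4 and 5 of each group). In the second, cells were transduced with an empty vector or with a vector for ADAR1 p150, the long isoform of the RNA-editing enzyme ADAR1 (ADAR1_p150_OE, replicates 1 and 2 of each group). No library combined the 2 treatments, the cells kept their own Adar gene, and the labels do not state whether replicates were separate cultures, so the p-values below measure the spread between libraries only.

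As background, ADAR1 converts adenosine to inosine in double-stranded RNA, which inverted repeats often form and transcripts of opposite strands can form by pairing. The p150 isoform is the one induced by interferon. Rnf214 encodes a RING finger protein. RING finger proteins are mostly ubiquitin ligases, which attach ubiquitin to substrate proteins, and RNF214 has been described as acting on the TEAD transcription factors, the DNA-binding partners of YAP and TAZ in the Hippo pathway. 1700020L24Rik is annotated as protein coding and still carries a clone-derived name. Gm51913, Gm39008 and Gm52209 are annotated as long non-coding RNAs, and LOC667541 as a pseudogene; predicted genes of this kind are named by number and have no described function in the annotation used here.

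The values were raw counts per gene, normalized by TMM, a scaling of library sizes, and given as CPM, that is, relative to a common total. Library totals were between 1101767 and 1537037 counts, the share of AY036118, named here after its values had been seen, was between 44.4% and 50.3%, and 3 counts corresponded to between 1.95 and 2.72 CPM. A mean of 10 or more counts over the 8 libraries was needed for a gene to be tested with edgeR (6901 genes), and a gene was called at a Benjamini-Hochberg adjusted p under 0.05 together with a change of over 2-fold. The overexpressed gene itself, Adar, was scarce except on overexpression, with 5 counts in each vehicle library, 7 and 6 after 12-HETE, 2 and 8 in the vector libraries, and 181 and 140 after ADAR1_p150_OE. Of 6 epithelial markers, whose summed counts were between 201 and 379 per library, the keratins Krt8, Krt18, Krt7 and Krt19 were counted in every library, Epcam had at most 4 counts in a library and Cdh1 had 0 counts in all of them. Summed counts of the immune (10 to 26), endothelial (1 to 11) and fibroblast (10 to 59) markers were lower, over 4, 3 and 3 genes. The fibroblast marker Dcn alone had between 8 and 57 counts per library, against 25 to 60 for Krt7. In bulk RNA, fewer cells that express a gene cannot be told apart from less RNA per cell.

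All 6 genes passed the count minimum. With 12-HETE, 6.12% of the genes tested were called higher than vehicle and 8.25% lower; with ADAR1 p150, 8.11% were called higher than vector and 4.69% lower. The set called higher in both contained 144 genes, or 2.09% of those tested. All 6 members were in it, having been chosen for higher counts in both treatments. Without vehicle replicate 5 the set held 95 genes, again with all 6 members. Ordered within that set by the smaller of the 2 log2 fold changes, Gm39008 stood at place 8, Gm52209 at 14, LOC667541 at 15, Gm51913 at 36, 1700020L24Rik at 45 and Rnf214 at 87. In the looser sense that both treated libraries lay above both controls in both experiments, 1059 of the 6901 genes tested qualified. Such separation of the libraries is therefore not particular to the members. The rule gave no numerical threshold, so no gene just outside it could be named.

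The 6 genes lie at 5 places of the genome, in the GRCm38.p6 coordinates of RefSeq, which held every symbol of the count table. Rnf214 covers chr9:45856769-45906911 on the minus strand. 1700020L24Rik (chr11:83437694-83441232) and Gm51913 (chr11:83444336-83450294) are neighbours on the plus strand, 3103 bases apart. Gm39008 covers chr7:45659062-45676103 on the plus strand, LOC667541 covers chr13:50054762-50069184 on the minus strand, and Gm52209, whose strand was not given, covers chr15:55392589-55407738. All but LOC667541 overlap the span of another, protein-coding gene, as the map of the 5 loci shows. Rnf214 runs into Bace1 at its 3′ end and into Pcsk7 at its 5′ end. 1700020L24Rik and Mmp28 meet at their 3′ ends, Gm51913 lies entirely within Mmp28, Gm39008 overlaps Fut2, and Gm52209 lies entirely within Col14a1.

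**Figure D1:**
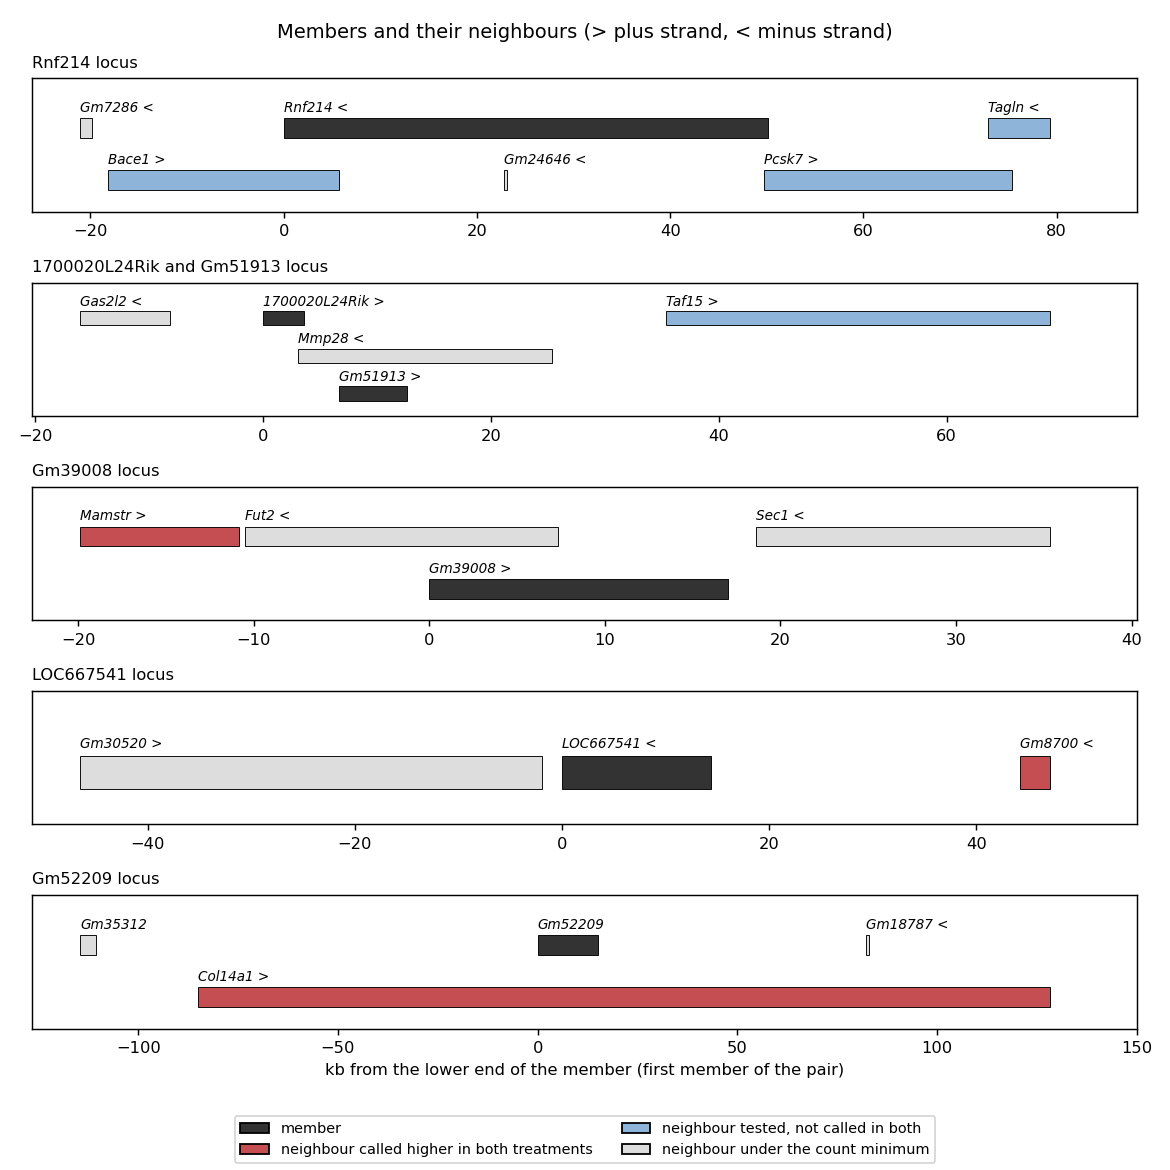
Gene spans at the 5 loci, drawn to scale in kb from the lower end of the member, with arrows for the strand; members are black, neighbours called higher in both treatments red, other tested neighbours blue and neighbours under the count minimum grey. The red neighbours are Mamstr beside Gm39008, Gm8700 beside LOC667541 and Col14a1 around Gm52209.

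Of the members, 3 had RefSeq promoter windows, with 5 windows in all, and the bases upstream of the start are shown for Gm39008 and Gm51913 because these non-coding RNAs start inside a protein-coding gene of the opposite strand. For Gm39008, RefSeq's promoter table held 2 windows, whose 250 bases before the start are chr7:45662440-45662689 and chr7:45663373-45663622. Both lie inside the span of Gm39008, not at its lower end, so they belong to starts within that span. The window of Gm51913 ends at the lower end of its gene and is chr11:83444086-83444335. Each is printed 5′ to 3′ on the plus strand, and capitals mark matches on either strand to CCAAT or GGAATG, the 2 searched motifs that occurred in them.

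Gm39008, first window: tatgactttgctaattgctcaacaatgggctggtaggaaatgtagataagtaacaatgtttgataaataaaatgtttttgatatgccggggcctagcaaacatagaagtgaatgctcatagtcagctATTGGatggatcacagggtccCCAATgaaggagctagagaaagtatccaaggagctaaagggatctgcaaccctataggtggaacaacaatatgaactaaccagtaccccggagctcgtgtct
Gm39008, second window: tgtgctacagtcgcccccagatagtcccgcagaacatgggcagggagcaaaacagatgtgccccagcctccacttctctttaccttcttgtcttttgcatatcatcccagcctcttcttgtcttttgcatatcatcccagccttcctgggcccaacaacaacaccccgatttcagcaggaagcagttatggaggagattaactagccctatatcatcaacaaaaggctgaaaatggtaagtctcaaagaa
Gm51913: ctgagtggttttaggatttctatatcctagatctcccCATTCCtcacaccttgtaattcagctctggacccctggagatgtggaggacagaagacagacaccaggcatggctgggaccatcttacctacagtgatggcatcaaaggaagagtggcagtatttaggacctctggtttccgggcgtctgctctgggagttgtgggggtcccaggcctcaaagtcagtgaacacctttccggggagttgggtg

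Both Gm39008 windows lie outside the annotated exons of Fut2, while the last 125 bases of the Gm51913 window lie in a coding exon of Mmp28, which is read from the other strand. The first Gm39008 window held 2 matches to CCAAT, one on each strand. The second held none of the 5 motifs searched, and the Gm51913 window held GGAATG, a core of TEAD binding sites, on the minus strand. Among 32851 windows of the same length, 33.8% held CCAAT and 12.6% held GGAATG, so such matches are common. The 2 Rnf214 windows were not printed because they overlap untranslated exons. They were rich in G and C, at 68.0% and 82.8% against a median of 52.4% over all windows, and held 1 and 6 copies of GGGCGG, a GC box, which 32.7% of windows held. The GC content of the windows of Gm39008 and Gm51913 was between 42.0% and 52.8%. The other motifs, which were absent from all 5 windows, were TATAAA (12.4% of all windows) and TGANTCA (6.75%), where N is any base, and no search allowed mismatches.

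For Rnf214, the RING finger gene, the counts were 491 and 480 in the vehicle libraries, 2112 and 2059 after 12-HETE, 491 and 497 in the vector libraries, and 1468 and 1502 after ADAR1_p150_OE. All 4 treated libraries lay above all 4 controls, and the 12-HETE libraries lay above the ADAR1_p150_OE libraries. In normalized CPM, the level was 409.3 ± 15.6 with vehicle, 1542 ± 49.7 with 12-HETE, 441.2 ± 9.87 in the vector libraries and 1084 ± 72.6 with ADAR1_p150_OE (SD, n = 2 libraries each). These levels correspond to log2 fold changes of 1.91 (standard error 0.0994) for 12-HETE and 1.30 (standard error 0.0989) for ADAR1 p150, or 3.77-fold and 2.46-fold.

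1700020L24Rik, the other protein-coding member, had 96 and 88 counts in the vehicle libraries, 551 and 525 after 12-HETE, 100 and 105 in the vector libraries, and 435 and 399 after ADAR1_p150_OE. As for Rnf214, every treated library lay above every control and 12-HETE gave the higher level. How many of all genes tested share this separation from the controls of both experiments was not counted. Its level was 77.6 ± 6.49 CPM with vehicle and 397.5 ± 6.38 with 12-HETE, and 91.5 ± 0.325 in the vector libraries and 303.8 ± 3.11 with ADAR1_p150_OE (SD, n = 2 libraries each). The log2 fold changes were 2.36 (standard error 0.125) and 1.73 (standard error 0.126).

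Gm51913, the long non-coding RNA downstream of 1700020L24Rik, had 156 and 115 counts in the vehicle libraries, 691 and 687 after 12-HETE, 128 and 161 in the vector libraries, and 648 and 644 after ADAR1_p150_OE. The controls of both experiments overlapped, and the 4 treated libraries stood well above them. The levels were 114.5 ± 27.0 CPM with vehicle, 509.5 ± 23.5 with 12-HETE, 128.8 ± 16.9 in the vector libraries and 471.3 ± 21.9 with ADAR1_p150_OE (SD, n = 2 libraries each). The log2 fold changes of 2.15 (standard error 0.128) and 1.87 (standard error 0.127) were closer to each other than those of its coding neighbour.

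Gm39008 had 18 and 31 counts in the vehicle libraries, 298 and 282 after 12-HETE, 30 and 38 in the vector libraries, and 322 and 381 after ADAR1_p150_OE. It was scarce in all controls and had between 282 and 381 counts in the treated libraries. From 20.6 ± 7.29 CPM with vehicle it stood at 214.3 ± 2.40 with 12-HETE, and from 30.3 ± 4.11 in the vector libraries at 257.3 ± 43.5 with ADAR1_p150_OE (SD, n = 2 libraries each). Its log2 fold change with 12-HETE, 3.37 (standard error 0.195), was the highest of the 6 members in that contrast, and that with ADAR1 p150 was 3.08 (standard error 0.179).

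Gm52209, the long non-coding RNA within Col14a1, had 14 and 13 counts in the vehicle libraries, 126 and 93 after 12-HETE, 14 and 18 in the vector libraries, and 232 and 225 after ADAR1_p150_OE. Here the ADAR1_p150_OE libraries lay above the 12-HETE libraries, the reverse of Rnf214. The levels were 11.4 ± 0.849 CPM with vehicle, 80.5 ± 13.2 with 12-HETE, 14.3 ± 2.08 in the vector libraries and 166.6 ± 4.86 with ADAR1_p150_OE (SD, n = 2 libraries each). The log2 fold changes were 2.82 (standard error 0.246) with 12-HETE and 3.53 (standard error 0.215) with ADAR1 p150, the highest of the 6 in the latter contrast.

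LOC667541, the pseudogene, had 31 and 39 counts in the vehicle libraries, 273 and 287 after 12-HETE, 38 and 37 in the vector libraries, and 463 and 477 after ADAR1_p150_OE. It followed the order of Gm52209, with the highest levels in the ADAR1_p150_OE libraries. The levels were 29.4 ± 4.11 CPM with vehicle, 207.3 ± 17.7 with 12-HETE, 33.5 ± 1.67 in the vector libraries and 343.1 ± 24.7 with ADAR1_p150_OE (SD, n = 2 libraries each). The log2 fold changes were 2.81 (standard error 0.167) and 3.35 (standard error 0.157).

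**Figure D2:**
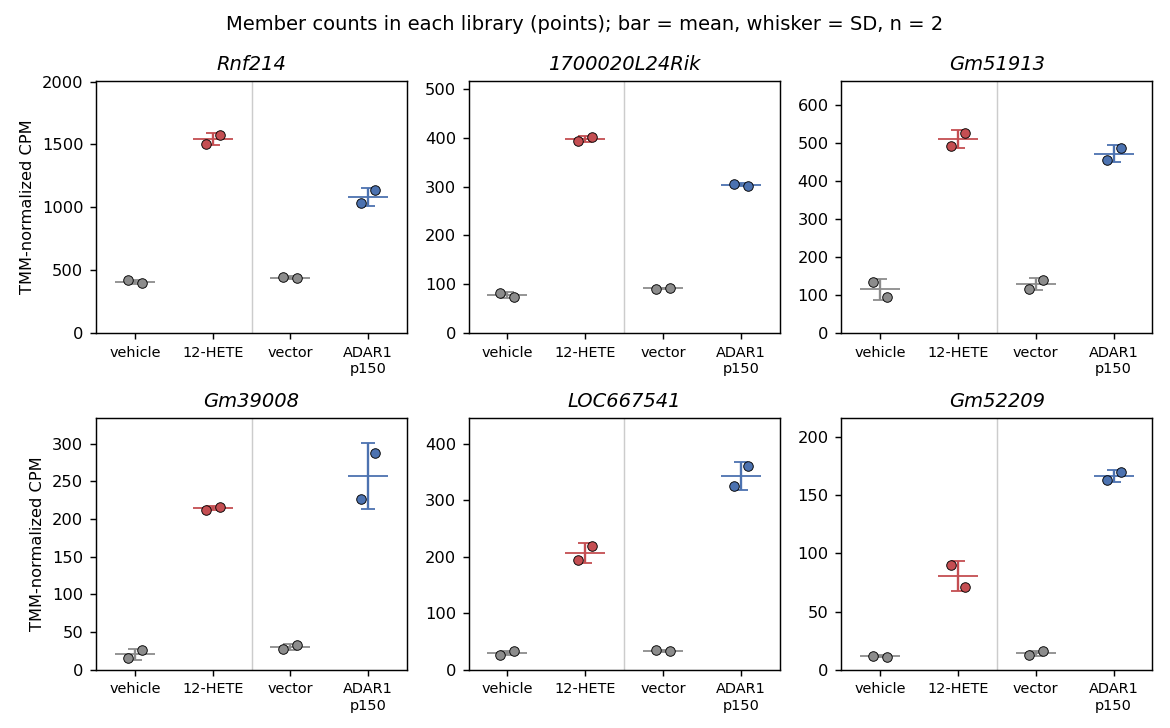
TMM-normalized CPM of each member (linear axis from 0, scaled per gene) in the 4 groups, with points for libraries, bars for the mean and whiskers for the SD of 2 libraries. Both treated libraries lie above both controls of their experiment in every panel, as they do for 1059 of the 6901 genes tested. The 12-HETE libraries are the highest for Rnf214, 1700020L24Rik and Gm51913, and ADAR1_p150_OE libraries for Gm39008, LOC667541 and Gm52209.

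The rule did not compare the controls of the 2 experiments with each other, and vector against vehicle was tested. The control values did enter the choice of the members, so this comparison is not independent of that choice. None of the 6 members was called by edgeR's quasi-likelihood test, none had an unadjusted p under 0.05, and none was called by DESeq2; over all genes tested, 3 genes (0.0435%) were called, which were Mtpn, H4c2 and H3c14, named after their values were seen. That count was 11 without vehicle replicate 4 and 22 without vector replicate 2. Gm39008 had the largest estimate, a log2 difference of 0.55 (95% confidence interval -0.012 to 1.12, adjusted p = 0.445 from edgeR), and Rnf214 the lowest, 0.11 (95% confidence interval -0.10 to 0.32, adjusted p = 0.703 from edgeR). The estimates of the other 4 members were between 0.17 and 0.33, so all 6 point estimates were above 0 without passing the test. The intervals do not exclude differences of up to 1.12 on the log2 scale, so equal control levels were not shown.

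The rule required both effects to be above 0 but did not set which was larger, and the difference between the effects was tested as an interaction. This test used the same libraries from which the members were chosen, and the rule left out genes with opposite effects. The number of members called is therefore a description and cannot be set against the share over all genes. A difference past both the adjusted p and the 2-fold change was found for 8.33% of all genes tested and for none of the 6 members; 3 members had an unadjusted p under 0.05, and DESeq2 called none. On the adjusted p alone, the effect of ADAR1 p150 on Rnf214 was smaller than that of 12-HETE by a log2 difference of -0.62 (95% confidence interval -0.90 to -0.34, adjusted p = 0.00176 from edgeR). The same held for 1700020L24Rik, with a difference of -0.63 (95% confidence interval -1.0 to -0.25, adjusted p = 0.0165 from edgeR). For the second of these the adjusted p rose to 0.15 without vehicle replicate 5, 0.059 without vector replicate 1 and 0.061 without vector replicate 2, and was 0.064 with DESeq2 and 0.06 with no count minimum. For Gm51913 (difference -0.29, 95% confidence interval -0.66 to 0.088) and Gm39008 (difference -0.29, 95% confidence interval -0.92 to 0.33) the effects could not be told apart. LOC667541 (0.54, 95% confidence interval 0.015 to 1.07, adjusted p = 0.168 from edgeR) and Gm52209 (0.72, 95% confidence interval -0.087 to 1.52, adjusted p = 0.244 from edgeR) had higher estimates with ADAR1 p150 that did not pass the test.

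**Figure D3:**
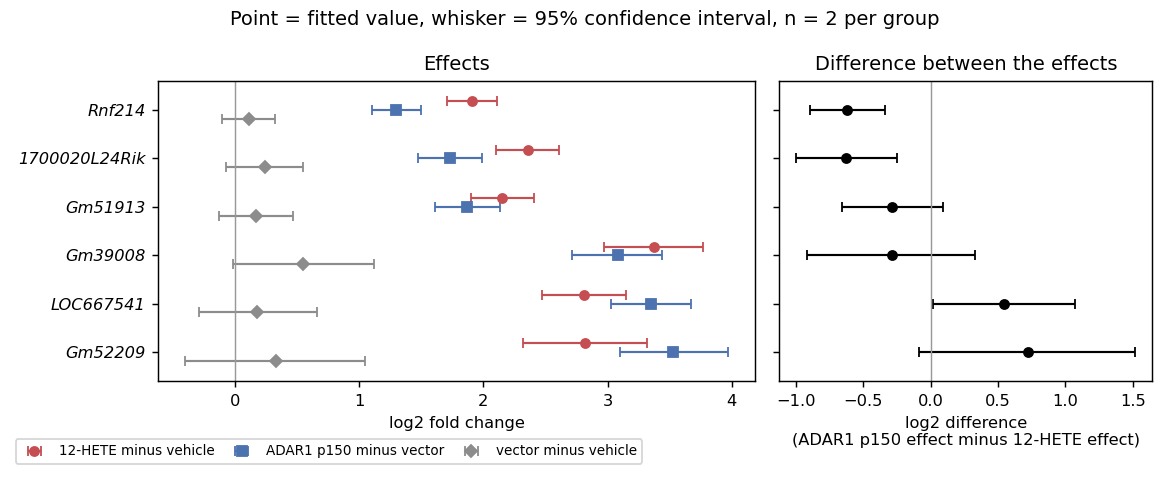
Log2 fold changes of the 6 members (left) and the difference between the 2 effects (right), as fitted values with 95% confidence intervals from 8 libraries. All effects lie between 1.30 and 3.53, the control differences lie between 0.11 and 0.55, and the differences between effects run from -0.63 to 0.72.

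The counts of the genes around the members were not used to choose them, although overlapping genes can share reads. Whether the counting used strand is not given in the sources used here, so reads from a gene and from its partner on the opposite strand cannot be told apart. The overlapping genes and the nearest gene on each side came to 16 genes that are not members. Of these, 7 passed the count minimum, 3 were called higher with 12-HETE and the same number with ADAR1 p150, and none was called lower; with DESeq2 none was called lower either, and 1 and 0 were lower at an unadjusted p under 0.05. Over all genes tested, 6.12% and 8.11% were called higher, and 8.25% and 4.69% lower. The same 3 genes, Mamstr, Gm8700 and Col14a1, were called higher in both contrasts.

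Around Rnf214, no overlapping gene was called higher. Bace1, which encodes a beta-secretase, overlaps the span of Rnf214 by 5716 bases, and 975 bases are exonic in both genes. It had 150 and 128 counts in the vehicle libraries, 109 and 105 after 12-HETE, 109 and 140 in the vector libraries, and 182 and 193 after ADAR1_p150_OE. Bace1 was not called in either contrast. With 12-HETE its log2 value was -0.57 (standard error 0.157, adjusted p = 0.00551 from edgeR), a change of less than 2-fold, and the adjusted p was 0.11 without vehicle replicate 4, 0.05 without 12-HETE replicate 4 and 0.053 with DESeq2. With ADAR1 p150 the log2 value was 0.30 (standard error 0.148, adjusted p = 0.136 from edgeR), and the difference between the 2 effects was 0.87 (adjusted p = 0.00466 from edgeR, 0.06 with DESeq2), and passed 2-fold without vehicle replicate 5 (1.02) or vector replicate 2 (1.03). Pcsk7, which encodes a proprotein convertase and shares 415 exonic bases with Rnf214, had between 23 and 43 counts in every library and log2 fold changes of 0.010 and -0.40 (adjusted p = 0.989 and 0.354 from edgeR). Tagln, which encodes the actin-binding protein transgelin and lies 22716 bases away, had log2 fold changes of 0.52 and 0.49 (adjusted p = 0.119 and 0.129 from edgeR). The remaining 2 neighbours, the pseudogenes Gm24646 and Gm7286, had at most 1 count in a library.

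At the chromosome 11 locus, Mmp28, which encodes the secreted metalloproteinase epilysin, was nearly uncounted. It had 1 count in each vehicle library, 9 and 12 after 12-HETE, 1 and 2 in the vector libraries, and 8 and 2 with ADAR1_p150_OE, below the count minimum. In the alternative fit with no minimum, Mmp28 was called higher with 12-HETE (adjusted p = 0.00375 from edgeR) and not with ADAR1 p150 (adjusted p = 0.584 from edgeR). Its 12-HETE libraries lay above the vehicle libraries, while one ADAR1_p150_OE library equalled a vector library. The exons of Mmp28 share 466 bases with those of 1700020L24Rik, 100% identical on the opposite strand, which is 49.1% of the longest 1700020L24Rik transcript in GENCODE M21. A further 496 coding bases of Mmp28 lie within the span of Gm51913. Gas2l2, upstream of 1700020L24Rik, had at most 2 counts in the control and 12-HETE libraries and 4 and 11 with ADAR1_p150_OE, where it was called higher with no minimum (adjusted p = 0.0372 from edgeR). Taf15, which encodes an RNA-binding protein of the FET family and lies beyond Mmp28, had between 8 and 28 counts and log2 fold changes of -0.16 and -0.79 (adjusted p = 0.807 and 0.229 from edgeR).

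Beside Gm39008, Mamstr was called higher with it and Fut2 had more counts in treated than in control libraries. Mamstr, which encodes a coactivator of MEF2 transcription factors and lies 10854 bases before it on the same strand, had 8 and 7 counts in the vehicle libraries, 16 and 24 after 12-HETE, 5 and 6 in the vector libraries, and 28 and 39 after ADAR1_p150_OE. On the log2 scale it rose by 1.21 with 12-HETE (standard error 0.439, adjusted p = 0.0344 from edgeR) and by 2.29 with ADAR1 p150 (standard error 0.430, adjusted p = 9.8e-05 from edgeR). The first of these calls was lost without vehicle replicate 4 (adjusted p = 0.096), vehicle replicate 5 (0.20) or 12-HETE replicate 5 (0.30), with DESeq2 (0.24) and with no count minimum (0.10). Fut2, which encodes a fucosyltransferase that builds the H antigen, had 0 counts in each vehicle library, 7 and 10 after 12-HETE, 0 and 1 in the vector libraries, and 3 in both ADAR1_p150_OE libraries. Of the exonic bases of Fut2, 42.8% lie within the span of Gm39008. Sec1, another fucosyltransferase gene, 1582 bases beyond Gm39008 on the minus strand, had at most 1 count per library apart from 4 in both ADAR1_p150_OE libraries. Fut2 and Sec1 were below the count minimum. With no minimum, Fut2 was called higher with 12-HETE (adjusted p = 0.000505 from edgeR) and not with ADAR1 p150 (adjusted p = 0.523 from edgeR), and Sec1 was called in neither.

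Gm52209 lies within Col14a1, which encodes a fibril-associated collagen, and Col14a1 was called in the same direction. Col14a1 had 6 and 7 counts in the vehicle libraries, 23 and 20 after 12-HETE, 4 and 1 in the vector libraries, and 38 and 26 after ADAR1_p150_OE, and no treated library overlapped its controls. The log2 fold changes were 1.52 with 12-HETE (standard error 0.446, adjusted p = 0.00908 from edgeR) and 3.32 with ADAR1 p150 (standard error 0.513, adjusted p = 5.0e-06 from edgeR). The first call was lost without vehicle replicate 4 (adjusted p = 0.067), vehicle replicate 5 (0.053) or 12-HETE replicate 4 (0.052), and with DESeq2 (0.12). The second value was 4.59 without vector replicate 1 and 2.64 without vector replicate 2, and was called in both cases. Of Col14a1, 146 of the 7013 exonic bases lie within the span of Gm52209. Gm18787, a pseudogene that also lies within Col14a1, had between 1 and 6 counts in the control and 12-HETE libraries and 12 and 10 with ADAR1_p150_OE, where it was called higher with no minimum (adjusted p = 0.0213 from edgeR), and Gm35312 on the other side had at most 3 counts.

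Beside LOC667541, Gm8700, which RefSeq lists as protein coding and GENCODE M21 as a processed pseudogene, lies 29783 bases away on the same strand. Gm8700 had 9 and 4 counts in the vehicle libraries, 43 and 46 after 12-HETE, 10 and 6 in the vector libraries, and 68 and 92 after ADAR1_p150_OE. It rose by log2 fold changes of 2.56 with 12-HETE (standard error 0.386, adjusted p = 2.7e-06 from edgeR) and 3.02 with ADAR1 p150 (standard error 0.337, adjusted p = 1.2e-08 from edgeR), and the first value was 3.27 without vehicle replicate 4. LOC115486420, which follows Gm8700 and was picked by its values, had 2 and 3 counts in the vehicle libraries, 18 and 22 after 12-HETE, 1 and 0 in the vector libraries, and 29 and 25 after ADAR1_p150_OE, and was called higher in both contrasts (adjusted p = 0.000196 and 8.3e-07 from edgeR). Gm30520, on the other side of LOC667541, had at most 1 count in a library. The transcript of LOC667541 in GENCODE M21 is 278 bases long, while the RefSeq span of the gene is 14423 bases. That transcript matched the one of Gm48052, a processed pseudogene, over 93.5% of its length at 96.5% identity, and that of Gm8672 over 43.2%. In both matches the transcripts aligned in the same direction. Reads from such copies may be assigned to either gene or dropped, so the counts of LOC667541 are uncertain in this respect. Gm8672 had between 1 and 7 counts per library, and counts of Gm48052, the longer match, are not given here.

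The span was then widened to 500 kb on each side of a member, a distance chosen after the neighbours had been seen. Around Rnf214, 7 other genes were tested and none was called in either treatment; at an unadjusted p under 0.05, 12-HETE gave 1 higher and 2 lower genes and ADAR1 p150 gave 3 higher and 1 lower, while DESeq2 called none. Around 1700020L24Rik and Gm51913, 11 genes were tested, none was called higher (1 with 12-HETE and 3 with ADAR1 p150 were higher at an unadjusted p under 0.05, none by DESeq2) and 3 were called lower in each treatment. The lower genes, named after their values were seen, included Slfn2 and Gm20234 in both treatments, with log2 fold changes of -2.71 and -4.87 with 12-HETE and -1.68 and -3.11 with ADAR1 p150. Without 12-HETE replicate 4 the 12-HETE values were -3.58 and -7.93, and without 12-HETE replicate 5 that of Gm20234 was -4.01. Slfn2 is a schlafen gene, a family known to respond to interferon. The remaining one was Heatr9 with 12-HETE and Slfn9 with ADAR1 p150. DESeq2 called 2 genes lower in each treatment, which were Slfn2 and Gm20234, so it did not make these calls of Heatr9 and Slfn9.

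Around Gm39008, 24 genes were tested, where 12-HETE gave 1 higher and 2 lower calls, and ADAR1 p150 gave 6 higher and 0 lower, with 1 lower at an unadjusted p under 0.05 and 0 called lower by DESeq2. DESeq2 called 3 of them higher with ADAR1 p150. Around LOC667541, 7 genes were tested, of which 3 were called higher with 12-HETE and 2 with ADAR1 p150; by DESeq2 it was 2 in each, and none was lower by either tool or at an unadjusted p under 0.05. Around Gm52209, all 5 genes tested were called higher with 12-HETE and 2 with ADAR1 p150, with medians of 1.39 and 0.61, against medians of 0.0044 and 0.066 over all genes tested. DESeq2 called 2 and 1 of the 5 higher; none was lower by either tool or at an unadjusted p under 0.05. With 12-HETE the highest of them, named after its values were seen, was Enpp2, which encodes the lysophospholipid-processing enzyme autotaxin and rose by 2.86 on the log2 scale (adjusted p = 0.000111 from edgeR), a value that was 2.23 without vehicle replicate 4 and 4.0 without vehicle replicate 5. With ADAR1 p150 Enpp2 stood at 3.08 (adjusted p = 0.000459 from edgeR, with no adjusted p from DESeq2), below Col14a1. The counts of genes in these windows are small, and no test of the windows themselves was made.

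**Figure D4:**
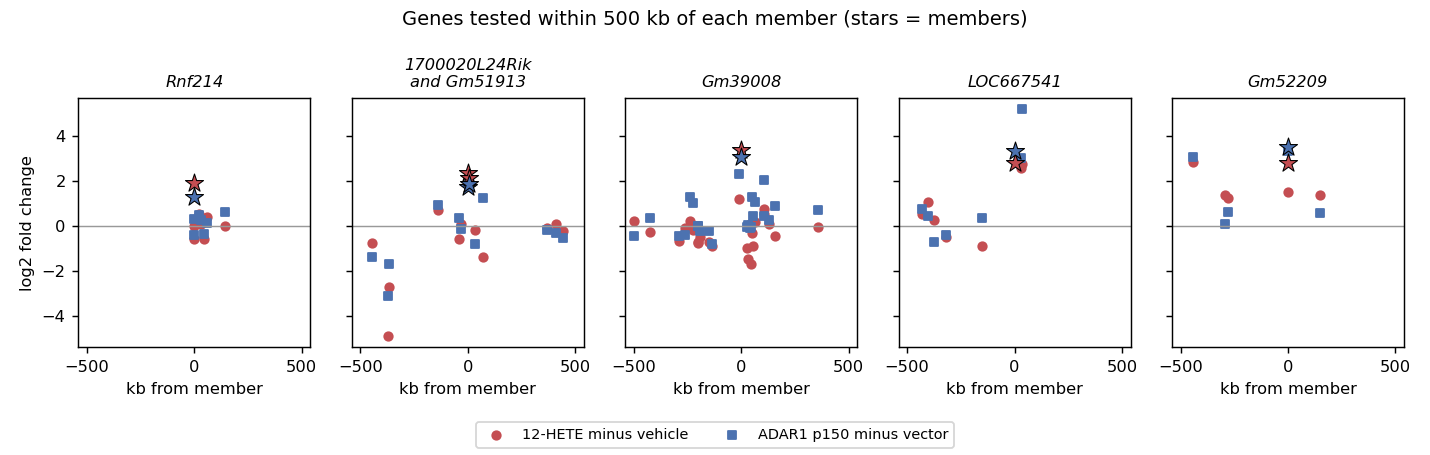
Log2 fold changes of the genes tested within 500 kb of each member (circles for 12-HETE, squares for ADAR1 p150) against their distance in kb, with the members as stars. The points around Rnf214 lie near 0, the 3 farthest below 0 around 1700020L24Rik and Gm51913 belong to Gm20234 and Slfn2, and all circles around Gm52209 lie above 1.

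By class, 78 of 4907 protein-coding genes tested were called higher in both treatments (1.59%), as were 52 of 1601 long non-coding RNAs (3.25%) and 10 of 292 pseudogenes (3.42%). This comparison of classes was chosen after the members' classes had been seen and is given without a test.

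RING finger genes, the family to which Rnf214 belongs, were called higher or lower in shares not far from those of all genes tested. Among the 75 other genes with symbols of the form Rnf and a number, 24 passed the count minimum. With 12-HETE, 1 was called higher (4.17%) and 2 lower (8.33%), against 6.12% and 8.25% of all genes tested, with a median log2 fold change of -0.024 against 0.0044. With ADAR1 p150, 3 were called higher (12.5%) and 1 lower (4.17%), against 8.11% and 4.69% of all genes, with a median of 0.34 against 0.066. Rnf146, which encodes a ligase that recognises poly(ADP-ribose)-tagged proteins, was called higher in both, by log2 fold changes of 1.62 with 12-HETE (standard error 0.139, adjusted p = 1.9e-11 from edgeR) and 1.58 with ADAR1 p150 (standard error 0.144, adjusted p = 1.3e-10 from edgeR). Its counts were 90 and 81 in the vehicle libraries, 319 and 283 after 12-HETE, 76 and 73 in the vector libraries, and 289 and 256 after ADAR1_p150_OE, so that no treated library overlapped its controls.

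Rnf31, which encodes the catalytic subunit of the linear ubiquitin chain assembly complex, was called lower in both, by log2 fold changes of -3.07 with 12-HETE (standard error 0.515, adjusted p = 1.5e-05 from edgeR) and -1.75 with ADAR1 p150 (standard error 0.511, adjusted p = 0.00976 from edgeR). It had 29 and 17 counts with vehicle and 3 in both 12-HETE libraries, and 14 in both vector libraries and 6 and 4 with ADAR1_p150_OE. The ADAR1 p150 call was lost without ADAR1_p150_OE replicate 2 (adjusted p = 0.072 from edgeR) and with DESeq2 (0.098). Rnf213, a large interferon-inducible ligase, fell with 12-HETE by 1.52 on the log2 scale (adjusted p = 9.6e-08 from edgeR). Rnf126 and Rnf141 rose with ADAR1 p150 with log2 fold changes of 1.44 and 1.25 (adjusted p = 0.00155 and 4.3e-11 from edgeR), and the first call was lost with DESeq2 (adjusted p = 0.074). With 12-HETE neither was called, although Rnf141 had 407 and 402 counts against 196 and 202 in the vehicle libraries. Rnf126 had 14 and 12 after 12-HETE against 11 and 15 with vehicle.

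Genes of the TEAD pathway were listed because of the described link to RNF214. Of 21 in the table, 14 were tested, none was called higher with either treatment, and 3 were called lower with 12-HETE (21.4%), where 6.12% of all genes tested were called higher and 8.25% lower. At an unadjusted p under 0.05, 0 were higher with 12-HETE, and 1 was higher and 2 lower with ADAR1 p150; DESeq2 called none higher, and edgeR and DESeq2 each called 0 lower with ADAR1 p150. Without vehicle replicate 5, vector replicate 1 or ADAR1_p150_OE replicate 1, edgeR called 1 lower with ADAR1 p150, which was Ankrd1, Ankrd1 and Axl in that order. The median log2 fold changes were -0.28 with 12-HETE and -0.32 with ADAR1 p150. The genes that fell were Ankrd1 and Axl, which are known targets of YAP and TEAD, with log2 fold changes of -3.47 and -2.51 (adjusted p = 3.2e-08 and 5.2e-08 from edgeR), and Ajuba, which encodes an inhibitor of the LATS kinases, with one of -1.32 (adjusted p = 0.039 from edgeR). The call of Ajuba was lost without vehicle replicate 4 (log2 fold change -0.67, adjusted p = 0.50), 12-HETE replicate 4 (0.11) or 12-HETE replicate 5 (0.17), with the replicate block (0.053) and with DESeq2 (0.23), leaving 2 genes called in each. Ankrd1 had 40 and 50 counts in the vehicle libraries, 5 and 4 after 12-HETE, 15 and 27 in the vector libraries, and 11 and 15 after ADAR1_p150_OE. Its vector libraries thus had fewer counts than its vehicle libraries, a difference between the experiments that was not called. Axl counts were 48 and 63 in vehicle libraries, 10 and 12 after 12-HETE, 39 and 47 in the vector libraries and 33 and 25 after ADAR1_p150_OE.

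The genes whose normalized log2 levels over the 8 libraries were most like those of each member were taken among genes averaging 50 counts or more. The 8 libraries fall into treated and control groups, so a high Pearson r mainly says that 2 genes share that split, and no test was made. Between members, r was between 0.892 for Rnf214 with Gm52209 and 0.994 for Rnf214 with 1700020L24Rik. Rnf214 was most like Gm38908 (r = 0.997), Gm51685 (0.996) and Ints8 (0.996), the last of which encodes a subunit of the Integrator complex. 1700020L24Rik was most like Gm24576 (0.997), LTO1 (0.995) and Gm51820 (0.995). Gm51913 was most like Gm51820 (0.993), Gm52421 (0.991) and its neighbour 1700020L24Rik (0.990).

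LOC667541 and Gm52209 each had the other among their 3 most similar genes (r = 0.990), and LOC667541 was the most similar gene to Gm39008 (0.986), although these genes lie on chromosomes 13, 15 and 7. Gm39008 was also close to Gm51543 and Arv1 (0.986 each). LOC667541 was closest to the pseudogene Gm20949 (0.995) and was also like Tsix (0.990), the antisense RNA of Xist, whose log2 fold changes were 3.62 with 12-HETE and 4.15 with ADAR1 p150. Gm52209 was most like Gm30934 (0.996) and Ush1g (0.992), which encodes a scaffold protein of hair cells and had log2 fold changes of 2.80 and 4.03. A high r did not require a change of the same size, since Gm20949 and Gm30934 had log2 fold changes of at most 0.86 in either contrast.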

How the data were processed

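RNA was measured by sequencing in 8 libraries of EO771 cells, grouped by the sample labels. According to the study's methods, RNA was extracted with Trizol, directional paired-end libraries were sequenced, and the authors used FastQC for quality, prinseq to drop duplicates, STAR for alignment (GRCm38) and featureCounts for counting; the labels instead name a column kit and another library kit. The authors deposited raw counts per gene without normalization, and whether counting used strand is not given in the sources used here. Genes averaging 10 counts or more were kept (6901 of 49997), normalized by TMM and fitted in one edgeR 4.0.16 quasi-likelihood model of all 8 libraries (R 4.3.3, limma 3.58.1), with Benjamini-Hochberg adjustment; calls needed an adjusted p under 0.05 and over 2-fold. Standard errors are the log2 fold change divided by the square root of F. DESeq2 1.42.0, RLE factors, other count minimums, a fit of 4 libraries, a replicate block, leaving out each library or AY036118, and adjusted p alone were alternatives. Totals were 1101767 to 1537037 counts; floors of 3 counts cover counting error only. Replicates of a group differed by more than sampling noise (mean chi-square per gene 1.39 to 1.71).

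The members and lists were chosen with earlier results of these data known. The genes named are the 6 members, their overlapping and nearest genes, the 3 most similar genes of each, up to 4 called genes per list and contrast, and Adar; others are marked as named after their values were seen. Positions and promoter windows are from RefSeq (GRCm38.p6). Strands and transcripts were completed from GENCODE M21, and transcripts were compared with blastn 2.17.0. GENCODE M21 held 0 transcripts of Gm51913, Gm39008 and Gm52209, so copies of these members elsewhere could not be searched for. On simulated counts for 12-HETE with 6901 genes, 186 of 200 genes changed 4-fold were called, with 1 unchanged gene.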

Additional observations from a re-analysis of the deposited data

Results flagged for a closer look

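Rnf214 and 1700020L24Rik, the protein-coding members, are listed because the test of the difference between the 2 effects passed the adjusted p. The log2 fold change of Rnf214 with ADAR1 p150 was below that with 12-HETE by a difference of -0.62 (adjusted p = 0.00176 from edgeR), and the adjusted p remained under 0.05 in all 15 alternatives, where it was between 0.00093 and 0.038. The difference for 1700020L24Rik was -0.63 (adjusted p = 0.0165 from edgeR), and its adjusted p, between 0.014 and 0.15, remained under 0.05 in 10 of 15 alternatives. For both genes all 4 treated libraries lay above all 4 controls. Of the 6901 genes tested, 1059 had both treated libraries above their own controls in both experiments. Each treatment had its own experiment and controls, so the treatment and the experiment cannot be told apart in this difference. Both genes were also chosen from the values of these same libraries.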

How the results depend on the processing

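The members were chosen because these same counts were higher in both treatments, so the signs and calls of their treatment effects are given as a description. All 186 values of the members' treatment effects under the alternatives were above 0. All 6 members were called higher in both treatments under each setting. Of the values, 21 moved by more than the replicate SD. Of 161 counts, 128 stayed within 1.5 times. With DESeq2, 206 genes were called higher with 12-HETE, 250 with ADAR1 p150 and 65 in both, 254 differed between effects, 0 between controls, and 2 RING finger genes were called with ADAR1 p150. With 10 counts in every library the numbers were 202, 297, 64 and, between controls, 0, with 1 TEAD pathway gene called with 12-HETE and 0 calls of neighbours (6 in the fit reported), since Mamstr, Gm8700 and Col14a1 were not kept. With adjusted p alone they were 1039, 1001, 345, 1033 between effects and 8 between controls, with 6 RING finger genes called with 12-HETE. Between controls, 6 were called with RLE factors, 11 with no minimum, 1 in the fit of 4 libraries and 8 without AY036118, and between 2 and 22 when a library was left out. TEAD pathway genes called with ADAR1 p150 were 1 with RLE factors, no minimum, the fit of 4 libraries, without AY036118 and on adjusted p alone, and 0 or 1 when a library was left out; genes higher in both were between 95 and 136 then. The cause of these shifts was not tested, apart from the smaller number of genes kept.

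With the replicate block, 400 genes were higher with 12-HETE, 514 with ADAR1 p150 and 135 in both; 506 differed between effects, and no call of a member or neighbour changed, while the TEAD pathway gene Ajuba was no longer called with 12-HETE (adjusted p = 0.053 from edgeR). Same-numbered libraries deviated with correlations of -0.0806 and -0.124 in the 2 experiments, so the numbers were not taken to pair the samples. With crossed replicates, chosen after seeing the data, 583 genes were higher with ADAR1 p150 and 633 differed between effects.

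Directions turned in the following estimates. For Pcsk7 with 12-HETE the log2 fold change was -0.015 with RLE factors, -0.018 with DESeq2 and in the fit of 4 libraries, -0.0058 with 10 counts in every library, -0.043 with no minimum, -0.0034 with the replicate block, -0.064 without AY036118, and between -0.28 and 0.24 when a library was left out. When a library was left out, Pcsk7 with ADAR1 p150 was between -0.75 and 0.083, Taf15 with 12-HETE between -0.92 and 0.32, Gm51913 in vector against vehicle between -0.027 and 0.43, and the difference between the effects on Gm39008 between -0.69 and 0.024. None of these passed the test in any of them. Fut2 and Mmp28 were left out by the count minimum, and both were called higher with 12-HETE when no minimum was set, as were Gas2l2 and Gm18787 with ADAR1 p150.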

Other observations

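Across the classes to which the members belong, chosen after the members' values were seen and given without a test, long non-coding RNAs were called more often than protein-coding genes in both contrasts. With ADAR1 p150, 12.7% of 1601 long non-coding RNAs were called higher and 5.93% lower, against 5.91% and 4.38% of 4907 protein-coding genes. With 12-HETE the split was the other way, with 7.37% called higher and 12.4% lower, against 5.62% and 6.85% of protein-coding genes. Of the 292 pseudogenes, 7.19% were called higher and 7.88% lower with 12-HETE, and 19.2% higher and 3.08% lower with ADAR1 p150, with a median log2 fold change of 0.46 against 0.066 over all genes tested.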
